A study of Arabidopsis thaliana with 27 samples.

Results

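The aquaporins are the 35 genes of the major intrinsic protein family of Arabidopsis, taken by gene identifier out of the 34262 gene entries that were counted in every library: 5 PIP1 and 8 PIP2 genes, 10 TIP genes, 9 NIP genes and 3 SIP genes. RNA was measured in protoplasts of Col-0 roots that were sorted by GFP fluorescence from marker lines for the epidermis (pGL2:GFP, active in non-hair cells), the cortex (pCORTEX:GFP) and the pericycle (the enhancer trap E3754, active next to the xylem poles), so that each cell type was represented by a single reporter line. For every cell type the 9 libraries carried the labels flg22, the bacterial flagellin peptide, Pep1, a plant peptide released as a danger signal, and mock, which received water, with 3 replicates of each label. The labels gave plants 10 days old, peptides at 1 mM and an incubation of 1 h, whereas the series' design text gave 1 µM and sampling after 2 h. The names of the libraries held 7 sequencing facility numbers, and in mock libraries no such number was shared between cell types, so that cell type, reporter line and facility number cannot be told apart there.

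Aquaporins are membrane channels that let water, and in many cases small uncharged solutes, pass through a membrane along its gradient. Plasma membrane intrinsic proteins (PIPs) carry most of the water that crosses root cell membranes, and PIP1 proteins reach the plasma membrane mainly when assembled with PIP2 partners, which are regulated by phosphorylation, internalization and gating. Tonoplast intrinsic proteins (TIPs) do the same for the vacuole, Nodulin 26-like intrinsic proteins (NIPs) chiefly pass boric acid, arsenite and other small solutes, and small basic intrinsic proteins (SIPs) reside in the endoplasmic reticulum. Some PIPs also pass hydrogen peroxide, which connects the family to immune signaling.

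The sequences most relevant to the measurements are those of a near-identical gene pair and of the promoters of the genes that moved together most widely. PIP2;2 (AT2G37170, chr2:15613368-15615022, minus strand) and PIP2;3 (AT2G37180, chr2:15617635-15619155, plus strand) lie next to each other on chromosome 2 and are transcribed away from each other, and over 858 coding bases they differ at 45 positions (94.8% identity). Of all exon stretches of 100 bases, about the length of a read, 11.5% in PIP2;2 and 12.8% in PIP2;3 recurred in the other gene. A read within such a stretch does not by itself tell the 2 genes apart. The libraries held paired reads, and how far this makes the values of both genes uncertain was not tested. Coding positions 411 to 510, counted from the start codon, are shown from RefSeq's TAIR10.1 assembly because they hold 14 of these differences, printed in capitals.
PIP2;2: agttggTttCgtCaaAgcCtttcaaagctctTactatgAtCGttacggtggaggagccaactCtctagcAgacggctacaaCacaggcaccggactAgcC
PIP2;3: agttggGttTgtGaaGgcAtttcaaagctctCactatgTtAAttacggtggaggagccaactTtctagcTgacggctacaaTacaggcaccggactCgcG

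PIP2;2, TIP1;1 (AT2G36830, chr2:15445294-15446621, plus strand) and TIP2;2 (AT4G17340, chr4:9698940-9700472, plus strand) were the 3 aquaporins that differed between replicate numbers in all 3 cell types, and NIP1;1 (AT4G19030, chr4:10421521-10423508, minus strand) was higher in the epidermis than in the other cell types. The 250 bases before their annotated start are given in the 5′ to 3′ direction of the gene, with coordinates and sequence from RefSeq's TAIR10.1 assembly and with capitals for the core of the W-box, the motif bound by WRKY transcription factors (TTGAC, or GTCAA on the opposite strand).
PIP2;2, chr2:15615023-15615272, strand minus: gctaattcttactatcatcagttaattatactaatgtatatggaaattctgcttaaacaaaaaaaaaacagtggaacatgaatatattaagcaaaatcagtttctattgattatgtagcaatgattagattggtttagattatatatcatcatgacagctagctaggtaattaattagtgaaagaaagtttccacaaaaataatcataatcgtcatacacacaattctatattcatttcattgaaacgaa
TIP1;1, chr2:15445044-15445293, strand plus: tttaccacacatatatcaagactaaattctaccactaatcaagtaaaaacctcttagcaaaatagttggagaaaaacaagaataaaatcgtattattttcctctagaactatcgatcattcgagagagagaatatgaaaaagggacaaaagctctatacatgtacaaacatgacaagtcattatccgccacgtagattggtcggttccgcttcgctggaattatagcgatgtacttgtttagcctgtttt
TIP2;2, chr4:9698690-9698939, strand plus: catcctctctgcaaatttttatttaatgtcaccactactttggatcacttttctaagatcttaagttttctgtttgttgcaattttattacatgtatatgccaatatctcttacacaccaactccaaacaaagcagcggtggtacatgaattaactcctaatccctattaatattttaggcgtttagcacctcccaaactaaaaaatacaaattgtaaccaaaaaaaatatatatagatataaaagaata
NIP1;1, chr4:10423509-10423758, strand minus: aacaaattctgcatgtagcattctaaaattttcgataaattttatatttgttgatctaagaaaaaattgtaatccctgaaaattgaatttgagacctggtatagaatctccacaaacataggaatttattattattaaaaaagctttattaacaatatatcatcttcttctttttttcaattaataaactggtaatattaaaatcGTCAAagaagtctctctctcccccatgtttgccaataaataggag
The W-box core stood in the window of NIP1;1 and in none of the other 3. It was found in 19 of the 35 aquaporin windows (54.3%), against 44.9% of the windows of 27443 protein-coding genes. The G-box CACGTG, searched on both strands, was in none of the aquaporin windows and in 6.49% of all windows, and TATAAA on the gene's own strand was in 17.1% of the aquaporin windows and 32.9% of all. A match is a description of the letters only.

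Gene counts per library ran from 4172741 to 17188823 (median 9872815), and mitochondrial genes took 21.9 to 42.0% of them. The cell type labels were checked against their defining markers, as summed CPM, the counts scaled to a common library size. The 4 epidermis markers GL2, WER, MYB23 and TTG2 summed to 229 to 635 CPM in epidermis libraries, 22.1 to 56.5 CPM in cortex libraries and 0.627 to 59.3 CPM in pericycle libraries. Since epidermis cells were sorted by pGL2:GFP, the part of GL2 in this sum is not independent of the sort. The 4 pericycle markers PHO1, HMA4, BOR1 and SKOR summed to 13.9 to 18.9 CPM in the epidermis, 19.6 to 47.2 CPM in the cortex and 628 to 2048 CPM in the pericycle. Of the 2 cortex markers, CO2 was at 0 in all cortex libraries, and AED3 carried the sum of 114 to 324 CPM there, against 2.22 to 6.98 CPM in the epidermis and 7.03 to 114 CPM in the pericycle. Markers of other cells were present as well: the 3 root cap markers reached 85.9 to 225 CPM in epidermis libraries, and the 4 xylem and phloem markers 30.6 to 243 CPM in pericycle libraries, against at most 3.01 CPM in the epidermis and 6.11 CPM in the cortex. Their part in the aquaporin levels was not tested.

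Before the comparisons, the libraries went against their treatment labels in a manner that touches every result on elicitation. Of 10 genes known to respond to elicitors, none was called by edgeR between flg22 and mock or between Pep1 and mock in any cell type, with at most 2 at an unadjusted p under 0.05 in a comparison. Between libraries numbered 2 and libraries numbered 1, however, 7 were higher in the epidermis, 6 were higher and 1 lower in the cortex, and 3 were higher in the pericycle, and between libraries numbered 3 and 1 the counts were 7 higher, 7 higher and 1 lower, and 4 higher. For number 2 over 1, 1.69% of all genes were called higher in the epidermis and 0.209% lower in the cortex. In the pericycle 0.102% were called in either direction. For number 2 over 1 in the cortex, edgeR with libraries scaled by total counts called 1.87% of all genes in either direction. For number 3 over 1, 3.58%, 6.40% and 0.503% of all genes were called higher in the epidermis, the cortex and the pericycle. In the cortex 5.25% were called lower. The peroxidase gene PER4 had 145 to 382 CPM in the epidermis libraries numbered 3, 485 to 1395 CPM for number 2 and 19.0 to 83.3 CPM in those numbered 1, each set holding an flg22, a Pep1 and a mock library. CYP81F2, a cytochrome P450 of indole glucosinolate modification, had 74.8 to 350 CPM in the cortex libraries numbered 3, 17.8 to 29.9 CPM for number 2 and 0.554 to 2.85 CPM in those numbered 1. Each of these sets includes a mock library, so the mock libraries of a cell type differed in these genes as well. Whether treatment and replicate number are assigned correctly in the labels could not be settled from the files. The labels were kept as given, and the aquaporins are therefore described by cell type, by label and by replicate number.

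The level of each aquaporin was first compared between genes, per kilobase of exon (FPKM, CPM divided by the exon length in kilobases). PIP1;2 (AT2G45960), a main contributor to root water transport, was the most abundant member in all 3 cell types, with 732 ± 446 FPKM in epidermal, 3114 ± 1044 FPKM in cortical and 882 ± 359 FPKM in pericycle libraries (SD, n = 9 each). PIP1;3 (AT1G01620) followed it in each cell type, with 648 ± 387 FPKM in epidermal, 1767 ± 758 FPKM in cortical and 389 ± 179.9 FPKM in pericycle libraries. In each cell type the ranges of these 2 over libraries overlapped, and genes were not compared within libraries. The most abundant PIP2 gene was PIP2;7 (AT4G35100), with 426 ± 317 FPKM in epidermal, 1071 ± 489.9 FPKM in cortical and 226 ± 142 FPKM in pericycle libraries. In the pericycle PIP2;1 had 222 ± 100.2 FPKM, and the ranges of PIP2;1 and PIP2;7 overlapped there and in the cortex.

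By mean FPKM, the second PIP2 gene differed between cell types. In the cortex it was PIP2;1 (AT3G53420), a water channel that can also pass hydrogen peroxide, with 826 ± 381 FPKM. In the epidermis it was PIP2;4 with 129 ± 101 FPKM, and PIP2;1 had 60.6 ± 61.8 FPKM. The epidermis ranges of PIP2;4 (15.2 to 322 FPKM) and PIP2;1 (15.1 to 188 FPKM) overlapped. Among the TIPs, the epidermis held TIP1;2 at 319 ± 213 FPKM and TIP2;1 at 313 ± 186 FPKM, the cortex TIP2;1 at 686 ± 245 FPKM and TIP1;1 at 592 ± 387 FPKM, and the pericycle TIP1;2 at 181 ± 113 FPKM and TIP1;1 at 164 ± 109.8 FPKM. Within each of these pairs the ranges over libraries overlapped. TIP2;1 is a tonoplast channel that also passes ammonia.

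NIPs and SIPs were each carried by few genes. NIP1;1, which passes arsenite into roots, had 349 ± 158 FPKM in epidermal, 12.2 ± 9.29 FPKM in cortical and 38.4 ± 16.3 FPKM in pericycle libraries. The lowest, median and highest epidermis libraries for this gene were 116, 366 and 589 FPKM, against 2.54, 10.2 and 28.7 FPKM in the cortex and 11.01, 40.2 and 62.3 FPKM in the pericycle, so that the epidermis overlapped neither. NIP5;1 (AT4G10380), the boric acid channel needed for boron uptake under low supply, had 45.2 ± 24.4 FPKM in epidermal, 23.7 ± 7.27 FPKM in cortical and 12.7 ± 4.996 FPKM in pericycle libraries. SIP1;1 (AT3G04090) had 134 ± 39.3 FPKM in epidermal, 183 ± 34.4 FPKM in cortical and 96.0 ± 26.6 FPKM in pericycle libraries, with a narrow spread over libraries. SIP2;1 stood at 23.8 ± 4.71 FPKM in epidermal, 33.0 ± 6.61 FPKM in cortical and 25.1 ± 9.27 FPKM in pericycle libraries.

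Other members were rare or not detected in these cells. TIP1;3, TIP5;1, NIP4;1, NIP4;2 and NIP7;1, genes known mainly from pollen and anthers, had fewer than 3 counts each over all 27 libraries, and NIP4;1 had none. TIP3;1 and TIP3;2, which are tonoplast channels of seeds, averaged at most 2.82 FPKM and 0.252 FPKM in any cell type. PIP2;5, PIP2;8, NIP1;2, NIP2;1, NIP6;1 and SIP1;2 averaged at most 2.52 FPKM in any cell type, and NIP3;1 at most 4.80 FPKM, in the epidermis. After a filter on low counts 23 members could be tested in the epidermis, 25 in the cortex, 29 in the pericycle and 27 in the comparison of cell types.

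**Figure D1:**
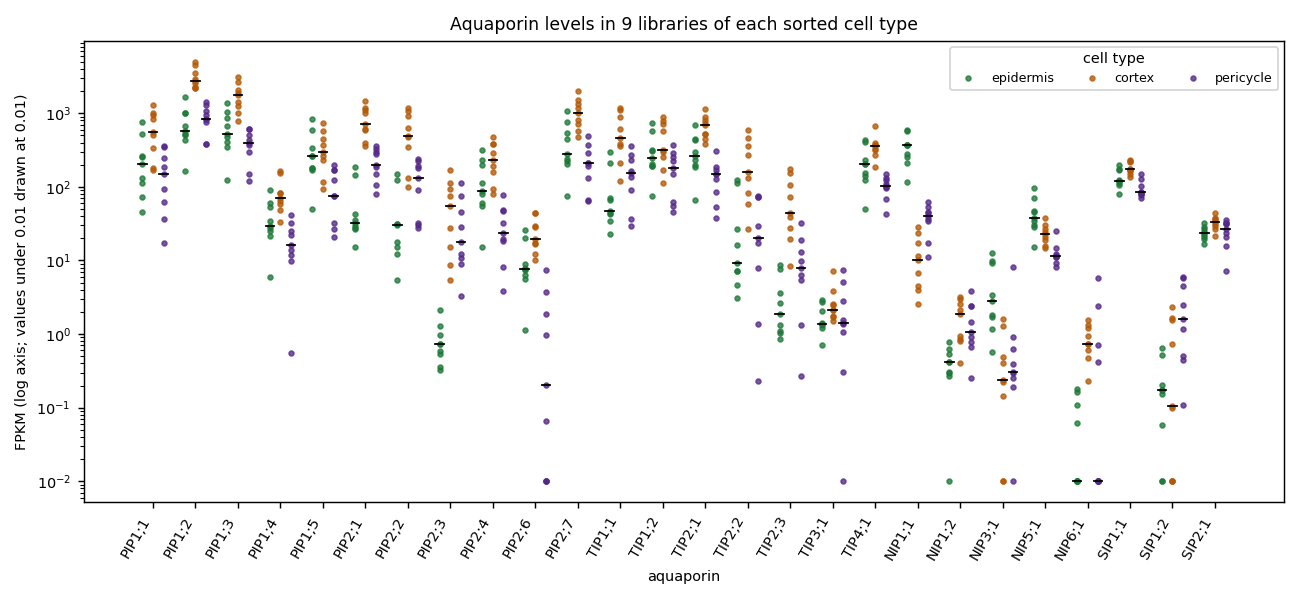
FPKM (log axis) of the aquaporins that averaged at least 1 FPKM in some cell type, with 1 point per library, 9 libraries for each of the epidermis, the cortex and the pericycle from left to right, and black bars for medians. PIP1;2 tops every cell type and reaches 5028 FPKM in the cortex, and the epidermis libraries of NIP1;1 (116 to 589 FPKM) lie above all cortex and pericycle libraries.

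As a share of all counts that entered the tests, the family made up 0.558 ± 0.324% in epidermal, 1.58 ± 0.696% in cortical and 0.517 ± 0.229% in pericycle libraries (SD, n = 9 each), with ranges of 0.150 to 1.16%, 0.761 to 2.75% and 0.212 to 0.857%. Within the family, PIP1 genes held 49.2 ± 2.86% of the summed CPM in epidermal, 55.8 ± 4.82% in cortical and 55.0 ± 2.55% in pericycle libraries. TIPs held 19.6 ± 1.502%, 17.4 ± 3.49% and 17.1 ± 1.87% in the same order. PIP2 genes held 15.8 ± 2.72% in epidermal, 24.4 ± 3.28% in cortical and 21.0 ± 3.17% in pericycle libraries, and SIPs 4.19 ± 2.02%, 1.93 ± 0.890% and 4.48 ± 2.34% in the same order, with overlapping ranges. NIPs stood apart, with 11.2 ± 3.07% in epidermal, 0.482 ± 0.189% in cortical and 2.47 ± 1.51% in pericycle libraries, and the epidermis range of 6.31 to 14.8% overlapped neither of the others, which reached 0.770% and 5.85%. In sorted bulk samples, fewer cells of a type and less RNA per cell cannot be told apart.

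The comparison of cell types used the 9 mock libraries, and the model held the replicate number as a block. The cortex had the highest mean family sum, 16008 CPM, against 6357 CPM in the epidermis and 4575 CPM in the pericycle. The epidermis library numbered 1 (9789 CPM) slightly exceeded the cortex library numbered 3 (9330 CPM). The NIP sum was lowest in the cortex, at 67.3 to 98.4 CPM, against 204 to 1077 CPM in the epidermis and 100.5 to 109.9 CPM in the pericycle. Of 27 members tested, 11 were lower and 1, NIP1;1, was higher in the epidermis than in the cortex, where 7.87% and 5.47% of 18625 genes were called lower and higher. Between epidermis and pericycle 5 were higher and 4 lower (8.22% and 9.76% of all genes), and between cortex and pericycle 15 were higher in the cortex and none was lower (3.21% and 3.94%). The median log2 fold change of the 27 members was -1.06 for epidermis over cortex, 0.61 for epidermis over pericycle and 1.86 for cortex over pericycle, against -0.01, -0.01 and 0.03 over all genes tested. The 10 genes PIP1;1, PIP1;2, PIP1;3, PIP2;1, PIP2;2, PIP2;7, TIP1;1, TIP2;1, TIP2;2 and TIP2;3 were higher in the cortex than in both other cell types, 1 gene, NIP1;1, exceeded both other cell types in the epidermis, and none did so in the pericycle.

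PIP2;1 had 23.7, 56.4 and 230.1 CPM in the epidermis mock libraries numbered 3, 2 and 1, 569, 1586 and 1766 CPM in those of the cortex and 127, 446 and 464 CPM in those of the pericycle. Every cortex library lay above every epidermis library, and the gene differed in all 3 pairs of cell types (log2 fold change -4.05 ± 0.46, adjusted p = 0.000207 for epidermis over cortex; -2.06 ± 0.43 and 0.00612 for epidermis over pericycle; 1.99 ± 0.41 and 0.0162 for cortex over pericycle). PIP2;2, a channel known for the water permeability of root cells, had 7.37, 41.5 and 169 CPM in the same order in epidermal, 178, 854 and 1254 CPM in cortical and 37.3, 176 and 323 CPM in pericycle libraries. It too differed in all 3 pairs, by -3.91 ± 0.41, -1.71 ± 0.38 and 2.20 ± 0.37 on the log2 scale (adjusted p = 0.000135, 0.00866 and 0.00583), although the highest epidermis library came close to the lowest cortex library. Its neighbor PIP2;3 was nearly absent from the epidermis, at 0.709, 0.399 and 1.57 CPM, against 10.6, 67.7 and 114 CPM in the cortex and 11.1, 13.4 and 34.98 CPM in the pericycle, and was lower in the epidermis than in the cortex (log2 fold change -5.89 ± 0.64, adjusted p = 0.000172) and the pericycle (log2 fold change -4.42 ± 0.61, adjusted p = 0.00056).

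Among the PIP1 genes, PIP1;2 had 264, 1605 and 1628 CPM in the epidermis mock libraries, 3481, 4615 and 4189 CPM in the cortex and 616, 1318 and 2103 CPM in the pericycle, with no overlap between the cortex and the others (log2 fold change -2.20 ± 0.48, adjusted p = 0.00965 for epidermis over cortex; log2 fold change 1.86 ± 0.46, adjusted p = 0.0335 for cortex over pericycle). PIP1;1 had 70.8, 401 and 805 CPM in epidermal, 263, 1481 and 1581 CPM in cortical and 26.9, 382 and 561 CPM in pericycle libraries, and PIP1;3 had 194, 1357 and 1618 CPM in epidermal, 1209, 2739.6 and 3179.7 CPM in cortical and 185, 678 and 961 CPM in pericycle libraries. Both were lower in the epidermis than in the cortex (log2 fold changes of -1.63 ± 0.38 and -1.55 ± 0.39, adjusted p = 0.0144 and 0.0201). All 5 PIP1 genes were higher in the cortex than in the pericycle, with log2 fold changes of 1.86 to 2.23. PIP1;5 was the PIP1 gene that was also higher in the epidermis than in the pericycle (log2 fold change 1.55 ± 0.35, adjusted p = 0.00989), with 67.1, 347 and 784 CPM in the epidermis and 28.1, 100.3 and 263 CPM in the pericycle.

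The pericycle was low in PIP2;4 and PIP2;6. PIP2;4 had 22.0, 291 and 337 CPM in epidermal, 117, 332 and 547 CPM in cortical and 11.9, 46.3 and 114 CPM in pericycle libraries, and exceeded the pericycle in the epidermis (log2 fold change 1.79 ± 0.42, adjusted p = 0.0122) and the cortex (log2 fold change 2.85 ± 0.43, adjusted p = 0.00278). PIP2;6 had 2.41, 19.3 and 43.5 CPM in epidermal, 26.3, 21.9 and 61.8 CPM in cortical and 0.142, 2.09 and 7.91 CPM in pericycle libraries, with log2 fold changes of 2.78 ± 0.69 for epidermis over pericycle and 4.24 ± 0.75 for cortex over pericycle (adjusted p = 0.0167 and 0.00726). PIP2;7, the PIP2 gene with the highest level, had 119, 854 and 1217 CPM in epidermal, 915, 1907 and 2140.2 CPM in cortical and 105, 339 and 800.0 CPM in pericycle libraries. It was lower in the epidermis than in the cortex (log2 fold change -1.67 ± 0.43, adjusted p = 0.0245) and higher in the cortex than in the pericycle (log2 fold change 2.43 ± 0.44, adjusted p = 0.00821).

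Of the tonoplast channels, TIP1;1, TIP2;1, TIP2;2 and TIP2;3 were highest in the cortex. TIP2;3 had 0.992, 2.19 and 8.98 CPM in the epidermis mock libraries, 31.8, 85.8 and 179.5 CPM in the cortex and 1.56, 7.40 and 37.7 CPM in the pericycle, and differed in all 3 pairs, by -4.93 ± 0.47, -1.64 ± 0.44 and 3.295 ± 0.43 on the log2 scale (adjusted p = 8.85e-05, 0.0237 and 0.000994). TIP2;2 had 6.24, 9.77 and 168 CPM in epidermal, 78.4, 362 and 616 CPM in cortical and 1.84, 23.4 and 101 CPM in pericycle libraries. The libraries numbered 1 of the epidermis and the pericycle exceeded the cortex library numbered 3, and within each number the cortex was the highest (log2 fold change -3.54 ± 0.61, adjusted p = 0.00248 for epidermis over cortex; log2 fold change 3.96 ± 0.61, adjusted p = 0.00307 for cortex over pericycle). TIP1;1 had 28.2, 52.7 and 264 CPM in epidermal, 258, 1108 and 1356 CPM in cortical and 44.7, 283 and 334 CPM in pericycle libraries (log2 fold change -3.23 ± 0.44, adjusted p = 0.000584 for epidermis over cortex; log2 fold change 2.17 ± 0.42, adjusted p = 0.0115 for cortex over pericycle). TIP2;1 had 79.1, 521 and 540.2 CPM in epidermal, 536, 972 and 1055 CPM in cortical and 62.9, 176 and 366 CPM in pericycle libraries. TIP1;2 and TIP2;1 were higher in the cortex than in the pericycle as well, by 1.67 ± 0.32 and 2.42 ± 0.42 (adjusted p = 0.0115 and 0.00687), and TIP2;1 was lower in the epidermis than in the cortex (log2 fold change -1.56 ± 0.41, adjusted p = 0.0278).

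NIP1;1 had 168, 855 and 531 CPM in the epidermis mock libraries, 16.9, 25.3 and 41.7 CPM in the cortex and 64.8, 53.2 and 77.4 CPM in the pericycle. In contrast to the genes that were highest in the cortex, it was highest in the epidermis, without overlap (log2 fold change 4.10 ± 0.49, adjusted p = 0.000256 for epidermis over cortex; log2 fold change 2.76 ± 0.47, adjusted p = 0.00193 for epidermis over pericycle). NIP5;1, with 32.8, 207 and 83.3 CPM in the epidermis and 32.2, 54.5 and 25.0 CPM in the pericycle, was higher in the epidermis by 1.33 ± 0.41 (adjusted p = 0.0438), with overlapping groups. TIP4;1 and the 3 SIP genes were called in none of the pairs. TIP4;1 had 59.0, 479 and 239.8 CPM in epidermal, 783, 320.5 and 220.1 CPM in cortical and 117, 127 and 146 CPM in pericycle libraries.

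**Figure D2:**
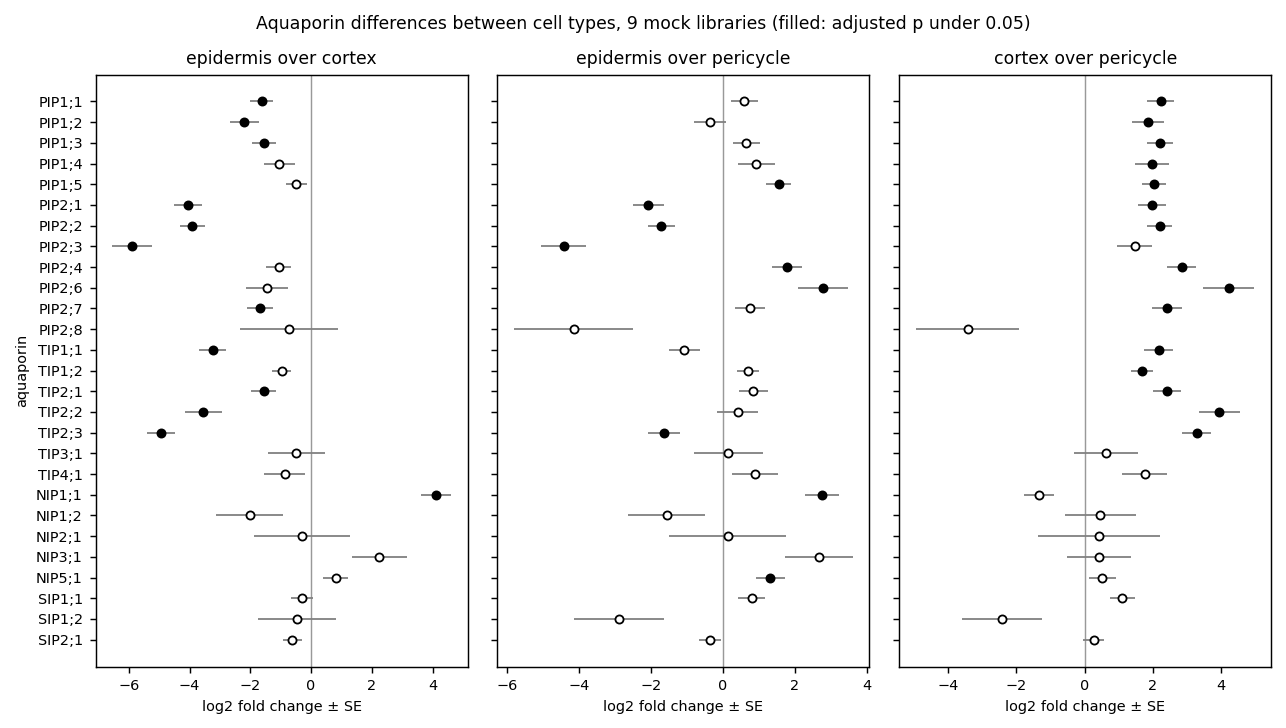
Log2 fold changes (points) with standard errors (bars) of the tested aquaporins between cell types in the 9 mock libraries, filled where the adjusted p was under 0.05. PIP and TIP genes lie left of 0 for epidermis over cortex and, apart from PIP2;8, right of 0 for cortex over pericycle, and NIP1;1 lies on the right of 0 in both epidermis panels, at 4.10 and 2.76.

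These counts rested on the block. Without the replicate number in the model, 4 aquaporins (PIP2;1, PIP2;3, TIP2;3 and NIP1;1) were called for epidermis over cortex, 2 (PIP2;3 and NIP1;1) for epidermis over pericycle and 0 for cortex over pericycle, and over all 27 libraries, with the label and the number as terms, the counts were 19, 20 and 19. The share of all genes called was 8.69%, 13.4% and 3.31% without the block and 39.7%, 46.0% and 43.2% over all 27 libraries. For epidermis over pericycle, leaving out the epidermis mock library numbered 1 or the pericycle one numbered 2 left 4 calls, and leaving out the epidermis one numbered 2 or the pericycle one numbered 3 left 5, and for cortex over pericycle 5 were left without the pericycle mock library numbered 2 or 3. For these fits with a library left out, the share of all genes called is not given.

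The treatment labels were meant to show what elicitation changes, but since the elicitor-responsive genes did not follow them, the values are given as a comparison of labels. No aquaporin was called in any of the 6 comparisons of flg22 or Pep1 with mock by edgeR's quasi-likelihood test. For all genes the share called by edgeR was 0% for flg22 in each cell type, and 0%, 0.320% and 0.0267% for Pep1 in the epidermis, the cortex and the pericycle. At an unadjusted p under 0.05 there were 0 members for either peptide in the epidermis, 2 for flg22 and 6 for Pep1 in the cortex, and 3 for flg22 and 0 for Pep1 in the pericycle. DESeq2 called 5 of the 25 members for Pep1 in the cortex, where it called 4.40% of all genes, and 0 in the other 5 comparisons, with 0.134% of all genes called for flg22 in the cortex, 2.23% for flg22 and 0.727% for Pep1 in the pericycle and 0% for both in the epidermis. The family's summed level was 8153 ± 5242 CPM for flg22, 3961 ± 406 CPM for Pep1 and 6357 ± 4408 CPM for mock in the epidermis (SD, n = 3 each). In the cortex it was 18360.2 ± 9312 CPM for flg22, 16626 ± 8099 CPM for Pep1 and 16008 ± 5871 CPM for mock, and in the pericycle 4774 ± 1766, 4003 ± 2117 and 4575 ± 2843 CPM in the same order. In each cell type the ranges of the 3 labels overlapped. In the epidermis the Pep1 libraries lay close together (3643 to 4419 CPM), against 4336 to 14129.6 CPM for flg22 and 1386 to 9789 CPM for mock, and within each number Pep1 was below flg22. In the cortex the TIP share of the family separated the 3 labels, which is given as a description with no test. TIPs held 17.5 to 18.5% of the family's CPM under flg22, 11.9 to 13.9% under Pep1 and 20.5 to 21.8% in mock. PIP1 genes held 53.2 to 55.4% under flg22, 58.0 to 63.3% under Pep1 and 47.7 to 55.8% in mock. For PIP1, Pep1 lay above both others, and flg22 lay within the range of mock. The PIP2, NIP and SIP shares in the cortex overlapped between all labels. In the epidermis and the pericycle the TIP share under Pep1 (16.9 to 20.7% and 13.7 to 17.8%) overlapped that of mock (18.6 to 20.1% and 17.5 to 19.8%). In the cortex the flg22 label and in the pericycle both labels differed from mock in facility number as well, and the peptide and the facility number cannot be told apart there. In the cortex 2 of the 3 Pep1 libraries also had another facility number than mock. The epidermis Pep1 libraries had another number than 2 of the 3 mock libraries. With the facility number as a term, edgeR called 0 of 18520 genes for Pep1 in the cortex.

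The cortex under Pep1 came closest to the threshold. TIP2;3 had 9.70, 22.7 and 124 CPM in the Pep1 libraries numbered 3, 2 and 1, against 31.8, 85.8 and 179.5 CPM in the mock libraries, lower within each number while the groups overlapped (log2 fold change -1.32 ± 0.32, adjusted p = 0.0941). TIP1;1 had 150.1, 441 and 756 CPM, against 258, 1108 and 1356 CPM in mock (log2 fold change -0.99 ± 0.28, adjusted p = 0.127), and TIP2;2 had 36.0, 111 and 483 CPM, against 78.4, 362 and 616 CPM in mock (log2 fold change -1.04 ± 0.34, adjusted p = 0.18). PIP2;6 lay in the other direction, with 42.7, 62.5 and 96.0 CPM, against 26.3, 21.9 and 61.8 CPM in mock (log2 fold change 0.99 ± 0.24, adjusted p = 0.0981). NIP1;1 had 3.70, 5.83 and 14.9 CPM, against 16.9, 25.3 and 41.7 CPM in mock (log2 fold change -1.83 ± 0.57, adjusted p = 0.16). These 5 genes are the ones that DESeq2 called, and edgeR without the filter on low counts called them with TIP1;2, with 3.27% of all genes called. Leaving out the cortex flg22 library numbered 2 brought TIP1;1 under the threshold.

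For flg22, the cortex members with the smallest p were PIP2;6 (log2 fold change 0.62 ± 0.24, adjusted p = 0.889) and PIP2;3 (0.97 ± 0.38, 0.889). In the epidermis all 23 members tested had positive log2 fold changes for flg22 over mock (median 0.50), the largest being 0.76 ± 0.56 for PIP1;5, with an adjusted p of 0.908, and 20 of 23 had negative ones for Pep1 (median -0.26). The mock library numbered 3 had the lowest family sum of the epidermis, 1386 CPM, and the flg22 library numbered 1 the highest, 14129.6 CPM. In the pericycle PIP2;6 was at 0 counts in the flg22 libraries of all 3 numbers, against 0.142, 2.09 and 7.91 CPM in mock and 0.440, 3.98 and 15.9 CPM under Pep1 (adjusted p = 0.619 for flg22 over mock). PIP1;4, which in leaves carries hydrogen peroxide into the cytosol during immune responses, had 118, 141 and 325 CPM under flg22, 66.3, 166 and 313 CPM under Pep1 and 97.3, 127 and 163 CPM in mock in the cortex libraries numbered 3, 2 and 1, and the labels overlapped.

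**Figure D3:**
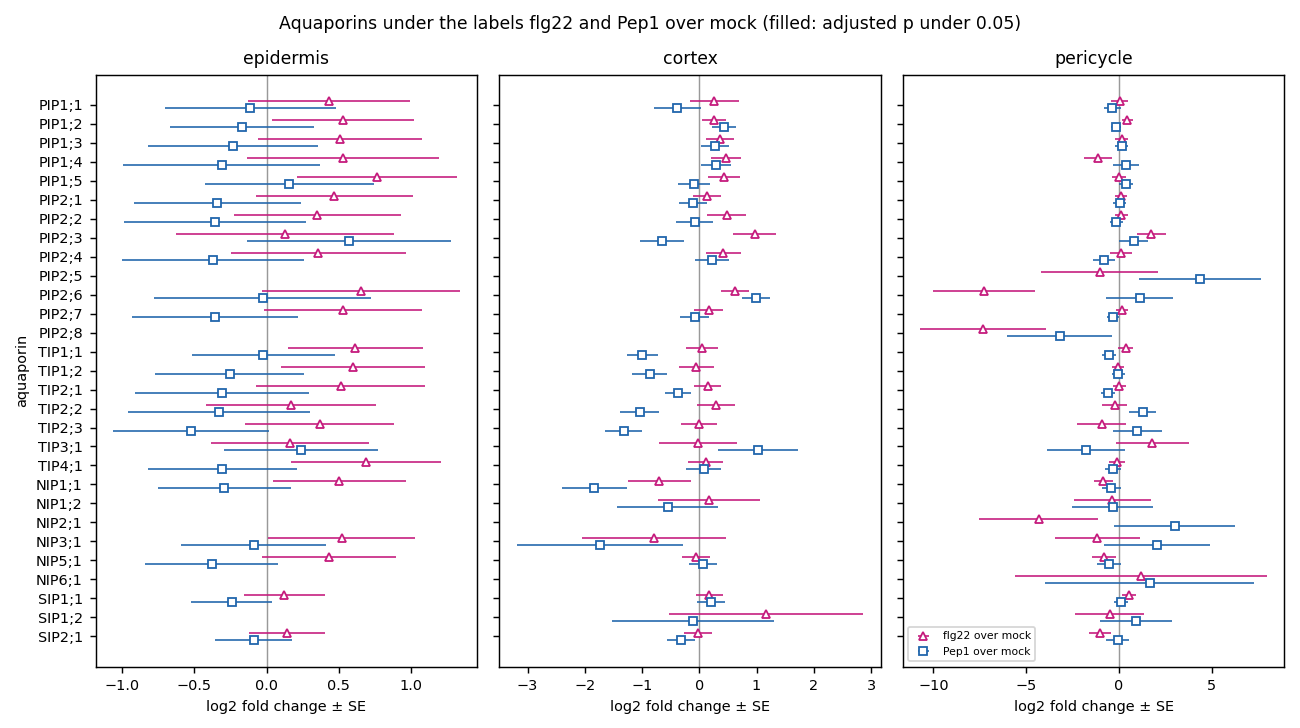
Log2 fold changes with standard errors of the tested aquaporins for flg22 over mock (triangles) and Pep1 over mock (squares) in the epidermis, the cortex and the pericycle, with horizontal scales that differ between panels. All points are open, since no adjusted p was under 0.05, and in the cortex the Pep1 points of TIP2;3 and NIP1;1 lie at -1.32 and -1.83.

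The replicate numbers, which the elicitor-responsive genes followed, separated aquaporins in all 3 cell types. With the treatment label in the model, libraries numbered 3 had lower levels than those numbered 1 for 3 of 23 members tested in the epidermis, 16 of 25 in the cortex and 10 of 29 in the pericycle, and no member was higher. The share of all genes called lower was 1.80%, 5.25% and 0.155% in the same order, and 3.58%, 6.40% and 0.503% of all genes were called higher. The median log2 fold change of the members was -1.42 in epidermal, -1.39 in cortical and -1.51 in pericycle libraries, against 0.01, -0.01 and -0.04 over all genes. All 10 genes called in the pericycle were also called in the cortex, where they made up 10 of the 16 calls, and PIP2;2, TIP1;1 and TIP2;2 were called in all 3 cell types.

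Several lists of markers of other cells also had negative medians for number 3 over 1, although 1 marker alone, an epidermis marker lower in the cortex, was called. In the cortex the median log2 fold change was -1.72 for the pericycle markers (2 of 4 at an unadjusted p under 0.05), -2.49 for 3 endodermis markers tested, -1.74 for the 3 root cap markers and -1.60 for 2 xylem and phloem markers tested (1 each at an unadjusted p under 0.05), and -0.51 for the 4 epidermis markers. In the pericycle the cortex marker AED3 had a log2 fold change of -1.89 ± 0.72 (adjusted p = 0.43), and the medians were -1.61 for the epidermis, -1.75 for the root cap, -1.82 for the root hair and -0.23 for the endodermis markers. For 3 xylem and phloem markers tested in the pericycle the median was -0.10. In the epidermis the medians were -1.65 for 2 root hair markers tested and -0.90 for the root cap markers. They were -0.62 for the 1 cortex marker tested there and -0.07 for the 1 endodermis marker tested. For 2 pericycle markers tested in the epidermis the median was positive, at 0.12, with 2 at an unadjusted p under 0.05. The markers of the sorted cell type itself had medians of -0.71 in the epidermis, -0.48 in the cortex (AED3 alone) and -0.58 in pericycle libraries. The part of other cells in the aquaporin differences was not tested.

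The family's share of the tested counts was 0.150, 0.346 and 0.356% in the epidermis libraries numbered 3 and 0.419, 0.992 and 1.16% in those numbered 1, in ascending order. In the cortex it was 0.761, 0.779 and 1.07% in libraries numbered 3 and 2.17, 2.21 and 2.75% in those numbered 1. In the pericycle it was 0.212, 0.217 and 0.313% in libraries numbered 3 and 0.702, 0.728 and 0.857% in those numbered 1. The 2 sets did not overlap in any cell type, and the libraries numbered 2 lay between them in the cortex (1.24 to 1.80%) and the pericycle (0.520 to 0.562%). In the epidermis the libraries numbered 2 (0.456 to 0.588%) overlapped those numbered 1.

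The vacuolar channel TIP2;2 showed the largest difference of the widely called genes. It had 4.23, 9.80 and 6.24 CPM in the flg22, Pep1 and mock epidermis libraries numbered 3, 21.7, 12.4 and 9.77 CPM for number 2 and 152, 36.4 and 168 CPM in those numbered 1 (log2 fold change -3.99 ± 0.67, adjusted p = 0.0133 for number 3 over 1). In the cortex it had 177, 36.0 and 78.4 CPM where the number was 3, 217, 111 and 362 CPM for number 2 and 793, 483 and 616 CPM in those numbered 1 (log2 fold change -3.02 ± 0.36, adjusted p = 0.000342). In the pericycle it had 0.313, 10.8 and 1.84 CPM where the number was 3, 27.7, 39.9 and 23.4 CPM for number 2 and 97.9, 99.5 and 101 CPM in those numbered 1 (log2 fold change -5.12 ± 0.83, adjusted p = 0.00274). Numbers 3 and 1 did not overlap in any cell type, and in the pericycle the 3 libraries numbered 1 lay close together whatever their label.

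PIP2;2 behaved alike, with 16.4, 24.0 and 7.37 CPM in the epidermis libraries numbered 3, 41.1, 20.3 and 41.5 CPM for number 2 and 204, 42.7 and 169 CPM in those numbered 1 (log2 fold change -2.92 ± 0.66, adjusted p = 0.0385). Its cortex libraries numbered 3 had 469.6, 136 and 178 CPM, those numbered 2 650.0, 661 and 854 CPM and those numbered 1 1443, 1608 and 1254 CPM (log2 fold change -2.70 ± 0.35, adjusted p = 0.000595). Its pericycle libraries numbered 3 had 43.6, 40.2 and 37.3 CPM, those numbered 2 261, 122 and 176 CPM and those numbered 1 240.3, 302 and 323 CPM (log2 fold change -2.79 ± 0.38, adjusted p = 0.000742). In each cell type the sets numbered 3 and 1 were disjoint, and in the epidermis the Pep1 library numbered 1 was well below the other 2 of its number.

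TIP1;1, an abundant vacuolar water channel that can pass hydrogen peroxide, had 43.2, 55.4 and 28.2 CPM in the epidermis libraries numbered 3 and 371, 82.6 and 264 CPM in those numbered 1 (log2 fold change -2.39 ± 0.51, adjusted p = 0.0325). In the cortex it had 467, 150.1 and 258 CPM and 1482, 756 and 1356 CPM in libraries numbered 3 and 1 (log2 fold change -2.19 ± 0.29, adjusted p = 0.000599). Its pericycle values were 112, 36.7 and 44.7 CPM and 452, 200.4 and 334 CPM (log2 fold change -2.35 ± 0.40, adjusted p = 0.0049). Again no library numbered 3 reached the lowest one numbered 1 of its cell type.

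**Figure D4:**
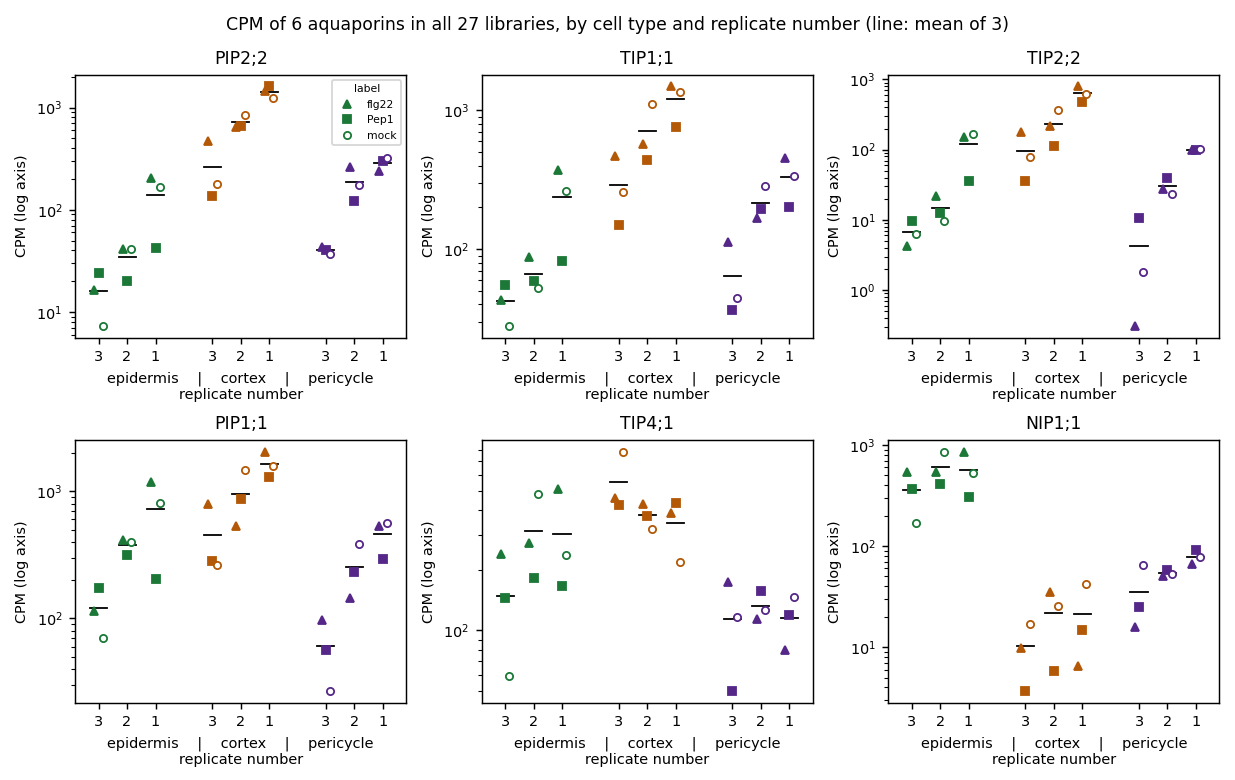
CPM (log axis) of 6 aquaporins in all 27 libraries, by cell type and, within it, by replicate number 3, 2 and 1, with triangles for flg22, squares for Pep1, open circles for mock and lines for means of 3. For PIP2;2, TIP1;1 and TIP2;2 the libraries numbered 3 lie below those numbered 1 in each cell type, while TIP4;1 shows no such order in the cortex and pericycle and NIP1;1 stays above 100 CPM in all epidermis libraries.

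Of the other tonoplast genes, TIP2;3 had 45.2, 9.70 and 31.8 CPM in the cortex libraries numbered 3 and 207, 124 and 179.5 CPM in those numbered 1 (log2 fold change -2.86 ± 0.33, adjusted p = 0.000303). TIP1;2 had 385, 146 and 222 CPM and 1142, 735 and 1009.9 CPM in the cortex (log2 fold change -2.09 ± 0.31, adjusted p = 0.00127), and 59.4, 79.8 and 71.3 CPM and 368, 331 and 477 CPM in the pericycle (log2 fold change -2.42 ± 0.35, adjusted p = 0.00124), in libraries numbered 3 and 1. TIP2;1 was called in the cortex (log2 fold change -0.98 ± 0.23) and the pericycle (-1.81 ± 0.38), with 823, 459 and 536 CPM and 1371, 889 and 1055 CPM in the cortex libraries numbered 3 and 1. The exception among the abundant tonoplast genes was TIP4;1. Its values in the cortex libraries numbered 3 were 458, 424 and 783 CPM and in those numbered 1 386, 434 and 220.1 CPM (log2 fold change 0.60 ± 0.31, adjusted p = 0.261), and its adjusted p in the epidermis and the pericycle was 0.343 and 0.998.

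All 5 PIP1 genes were lower in the cortex libraries numbered 3 than in those numbered 1. PIP1;5 had 304, 123 and 154 CPM in the flg22, Pep1 and mock libraries numbered 3 and 978, 767 and 603 CPM in those numbered 1 (log2 fold change -2.17 ± 0.29, adjusted p = 0.000636), and in the pericycle 35.6, 42.6 and 28.1 CPM and 228, 227 and 263 CPM (log2 fold change -2.73 ± 0.38, adjusted p = 0.00088). PIP1;1 had 800.0, 284 and 263 CPM and 2044, 1284 and 1581 CPM in the cortex (log2 fold change -2.03 ± 0.42, adjusted p = 0.00869), and 97.8, 56.5 and 26.9 CPM and 537, 292 and 561 CPM in the pericycle (log2 fold change -2.86 ± 0.48, adjusted p = 0.00353). PIP1;2, the most abundant member, had the smallest difference of the 16 cortex genes called, with 3662, 3575 and 3481 CPM where the number was 3 and 7318, 8029 and 4189 CPM in those numbered 1 (log2 fold change -0.93 ± 0.21, adjusted p = 0.0144), and was called in the pericycle as well (log2 fold change -1.28 ± 0.29, adjusted p = 0.047). PIP1;3 and PIP1;4 were called in the cortex (-1.39 ± 0.24 and -1.57 ± 0.27 on the log2 scale), with 2219.6, 1540.4 and 1209 CPM against 4809, 4093 and 3179.7 CPM and 118, 66.3 and 97.3 CPM against 325, 313 and 163 CPM.

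Of the PIP2 genes, 6 were lower in the cortex libraries numbered 3. PIP2;3 had 34.1, 6.70 and 10.6 CPM where the number was 3 and 204, 139 and 114 CPM in those numbered 1, the largest difference in the cortex (log2 fold change -3.56 ± 0.42, adjusted p = 0.000314). PIP2;1 had 924, 620.1 and 569 CPM and 2301, 1841 and 1766 CPM in the cortex (log2 fold change -1.59 ± 0.25, adjusted p = 0.00161), and 236, 166 and 127 CPM and 515, 571 and 464 CPM in the pericycle (log2 fold change -1.51 ± 0.34, adjusted p = 0.046). PIP2;7 had 1301, 771 and 915 CPM and 3197, 2423 and 2140.2 CPM in the cortex (log2 fold change -1.49 ± 0.25, adjusted p = 0.00298), and 213, 102 and 105 CPM and 591, 464 and 800.0 CPM in the pericycle (log2 fold change -2.13 ± 0.35, adjusted p = 0.00329). PIP2;4 and PIP2;6 were called in the cortex, with 276, 135 and 117 CPM against 679.7, 561 and 547 CPM (-1.91 ± 0.31) and 37.5, 42.7 and 26.3 CPM against 94.6, 96.0 and 61.8 CPM (-1.35 ± 0.24).

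NIPs and SIPs were called in none of the comparisons of number 3 with 1. NIP1;1 had 536, 369.6 and 168 CPM in the epidermis libraries numbered 3 and 844, 303 and 531 CPM in those numbered 1 (log2 fold change -0.58 ± 0.46, adjusted p = 0.541). NIP5;1 had 99.3, 62.3 and 32.8 CPM and 154, 66.3 and 83.3 CPM (log2 fold change -0.59 ± 0.45, adjusted p = 0.527), and SIP1;1 224, 227 and 293 CPM and 222, 298 and 177 CPM in the cortex (log2 fold change 0.02 ± 0.24, adjusted p = 0.968). In the pericycle SIP1;1 had 196, 91.2 and 107 CPM where the number was 3 and 110.1, 111 and 101 CPM in those numbered 1, in overlapping groups. As a share of the family, SIPs held 7.41 ± 0.799% in the pericycle libraries numbered 3 and 2.32 ± 0.356% in those numbered 1, and NIPs 13.9 ± 1.60% in the epidermis libraries numbered 3 and 7.70 ± 1.77% in those numbered 1 (SD, n = 3 each).

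**Figure D5:**
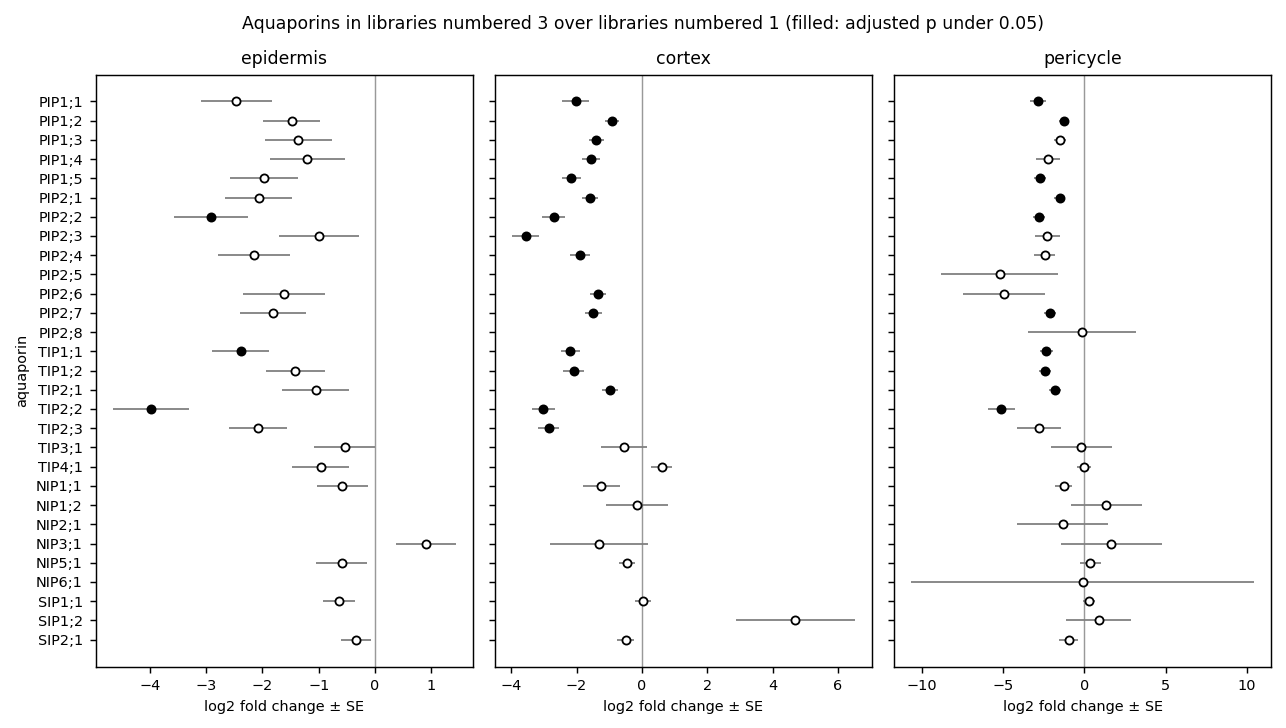
Log2 fold changes with standard errors of the tested aquaporins in libraries numbered 3 over libraries numbered 1, in the epidermis, the cortex and the pericycle (scales differ), filled where the adjusted p was under 0.05. Filled points are PIP and TIP genes left of 0 (3, 16 and 10 of them), and TIP4;1, NIP and SIP genes have open points.

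Libraries numbered 2 did not lie between the others throughout. The NIP genes summed to 39.3 to 67.3 CPM in the cortex libraries numbered 3, 94.5 to 101 CPM for number 2 and 65.2 to 85.3 CPM for number 1, so that number 2 was above both others without overlap. In the epidermis the NIP sums were 204 to 643 CPM for number 3, 500.2 to 1077 CPM for number 2 and 371 to 1000.4 CPM for number 1, with overlap. Against libraries numbered 1, 3 cortex members were lower (TIP2;3, -1.87 ± 0.32; PIP2;6, -1.19 ± 0.24; TIP2;2, -1.59 ± 0.34), with 0.209% of all genes called lower. In the epidermis 1 member was higher, NIP3;1, a channel linked to arsenite uptake, with 18.2, 13.5 and 13.96 CPM in the flg22, Pep1 and mock libraries numbered 2 and 2.42, 0.818 and 2.58 CPM in those numbered 1 (log2 fold change 3.02 ± 0.53, adjusted p = 0.0267, with 1.69% of all genes called higher). The epidermis libraries numbered 3 had 4.90, 4.05 and 1.70 CPM, so that for this gene number 2 lay above both others. The pericycle had 0 aquaporin calls for number 2 over 1 in edgeR and in DESeq2, with 4 at an unadjusted p under 0.05 and 0.102% of all genes called by edgeR and 1.03% by DESeq2.

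Between numbers 3 and 2, 4 cortex members were lower in libraries numbered 3: PIP2;3, PIP2;2, TIP1;1 and PIP1;5, with log2 fold changes of -1.94 ± 0.39, -1.69 ± 0.34, -1.40 ± 0.29 and -1.27 ± 0.28 (adjusted p = 0.0317 to 0.0468), with 0.988% of all genes called lower. In the epidermis 0 were called by edgeR and 1 by DESeq2, with 3 at an unadjusted p under 0.05 and 0.0968% of all genes called by edgeR and 3.16% by DESeq2. In the pericycle 0 were called by edgeR and 8 by DESeq2, with 12 at an unadjusted p under 0.05, while edgeR called 0% and DESeq2 1.25% of all genes, and the smallest adjusted p was that of PIP2;2 (log2 fold change -2.15 ± 0.38, adjusted p = 0.0632).

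Some of these counts turned on single libraries. The share of all genes called with a library left out is not given. A change in the aquaporins and a change over all genes cannot be told apart in those counts. The epidermis Pep1 library numbered 1 had the lowest family level of its number, 3822 CPM, against 14129.6 CPM in the flg22 and 9789 CPM in the mock one, and without it 7 members were lower in number 3 than in 1. Without the flg22 libraries numbered 1 or 3 or the mock library numbered 1 there were 0 calls in the epidermis, and without the mock libraries numbered 2 or 3 or the Pep1 library numbered 2 there was 1, while leaving out the Pep1 library numbered 3 gave 5. In the cortex the count for number 3 over 1 stayed between 13 and 16, and in the pericycle between 5 and 12, with 6 without the flg22 or the mock library numbered 1 and 5 without the Pep1 library numbered 3. The facility number added as a term left 1, 14 and 7 calls in the epidermis, the cortex and the pericycle, with 4.77%, 6.62% and 0.582% of all genes called.

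Whether a response differed between cell types was tested as an interaction over all 27 libraries, in which 29 aquaporins were tested. By edgeR 0 were called for flg22 over mock, for Pep1 over mock and for number 3 over 1, with 1, 0 and 1 at an unadjusted p under 0.05, and 0.0454%, 0% and 0.00505% of 19810 genes called. DESeq2 called 1 for flg22 and 0 for Pep1 and for number 3 over 1, with 1.37%, 0.621% and 0.697% of all genes called, and edgeR called 1 for flg22 without the epidermis mock or Pep1 library numbered 3. The gene that DESeq2 called was PIP2;6 (adjusted p = 0.0991 in edgeR), which was at 0 counts in all pericycle flg22 libraries. In number 3 over 1 the difference between the cortex and the pericycle for PIP2;6 was 3.96 ± 1.09 on the log2 scale. The adjusted p of this pair in edgeR was 0.328.

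Genes that act on aquaporins or share their membranes were described from lists. Of 10 genes for PIP trafficking and phosphorylation, 1 was lower in the epidermis libraries numbered 3 than in those numbered 1: SIRK1, a receptor kinase that activates PIP2;4 (log2 fold change -0.93 ± 0.21, adjusted p = 0.0385). In the cortex 2 of them were higher, the syntaxin gene SYP121, whose product delivers PIPs to the plasma membrane (0.92 ± 0.20, 0.0107), and the co-receptor gene BAK1 (0.69 ± 0.17, 0.0234), and in the pericycle none of the 10 was called, with 1 at an unadjusted p under 0.05. The list's median log2 fold change was -0.06 in epidermal, 0.27 in cortical and -0.33 in pericycle libraries. Of 6 genes for tonoplast pumps and channels, CAX1, a vacuolar calcium exchanger, was lower in libraries numbered 3 in the epidermis (-2.89 ± 0.46, 0.0109) and the cortex (-1.09 ± 0.27, 0.0231), and the other members were not called, with list medians of -0.41, 0.00 and 0.03 in the epidermis, the cortex and the pericycle. Of 3 plasma membrane proton pump genes none was called between replicate numbers, with at most 1 at an unadjusted p under 0.05 in a comparison. No gene of these 3 lists was called by edgeR between flg22 or Pep1 and mock, with at most 3 of a list at an unadjusted p under 0.05 in a comparison.

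Between cell types, CAX1 was lower in the epidermis than in the cortex (-4.32 ± 0.47, adjusted p = 0.000178) and the pericycle (-2.04 ± 0.44, 0.00757) and higher in the cortex than in the pericycle (2.28 ± 0.42, 0.00928), the same order as TIP2;3. VHA-A3, a subunit of the vacuolar proton pump, was higher in the cortex than in the pericycle (1.57 ± 0.42, 0.0428). The proton pump AHA3 was lower than in the pericycle both in epidermal (-5.15 ± 0.78, 0.000975) and in cortical libraries (-2.85 ± 0.67, 0.0269), and AHA1 was higher in the epidermis than in the pericycle (1.08 ± 0.33, 0.0431). OST1, a kinase that phosphorylates PIP2;1 in guard cells, was lower in the epidermis than in the cortex (-2.91 ± 0.81, 0.0342) and the pericycle (-2.75 ± 0.81, 0.0369), and BAK1 was higher in the epidermis than in the pericycle (1.32 ± 0.30, 0.0113). In that list of 10, none was called for cortex over pericycle, with 3 at an unadjusted p under 0.05. The shares of all genes called in these comparisons were 5.47% higher and 7.87% lower for epidermis over cortex, 8.22% and 9.76% for epidermis over pericycle and 3.21% and 3.94% for cortex over pericycle.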

How the data were processed

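RNA of 27 libraries of sorted root protoplasts was amplified (NuGEN) and sequenced as paired reads. The authors deposited whole-number counts per gene, not normalized; the study's methods name STAR, the TAIR10 genome and unstranded exon counting with LiBiNorm on Araport11, whereas the submitters' processing notes name TopHat2 2.0.14 and HTSeq. Of each library, 39.3 to 79.8% of the deposited counts stood in 5 entries that name no gene and were left out. Organelle (285), ribosomal protein (367) and rRNA (5) entries were excluded as in the study's methods, which left 33605 of 34262 entries and 2318816 to 12256340 counts per library (median 6522973).

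Counts were tested over all genes with edgeR 4.0.16 (quasi-likelihood, TMM scaling, filterByExpr with a minimum count of 10 and a minimum total of 15) in R 4.3.3, with Benjamini-Hochberg adjustment and a threshold of 0.05. Labels and replicate numbers were fitted together within each cell type, cell types in the mock libraries with the number as a block, and interactions over all libraries. The number entered because the study's methods use it as the batch. CPM are relative to the TMM-scaled library size, FPKM to exon length as well. The tests were tried on simulated data. Alternatives were DESeq2 1.42.0, RLE scaling, no filter on low counts, no replicate block, no label term, the facility number as a term, all 27 libraries, the excluded genes kept and each library left out, and, chosen after seeing the data, total counts without TMM. Every aquaporin was accounted for; per-library values were given for called members, up to 6 per subfamily and comparison, and for the most abundant. The members and lists were chosen with earlier results of these data known. The p-values cover the spread between these samples, and depth limits members with few counts.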

Additional observations from a re-analysis of the deposited data

How the results depend on the processing

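No called aquaporin changed direction under any alternative. Of 73 calls, 73 stayed past the threshold with DESeq2 and with no filter on low counts, 71 with RLE scaling, and 72 each with the excluded genes kept and with total counts in place of TMM; 41 were lost without some single library. Total counts shifted the median of all genes by -0.36 for epidermis over pericycle and for cortex over pericycle. Of 27 pairs of same-numbered libraries, 17 deviated together with a correlation over 0.1 (range -0.176 to 0.585). The pairs numbered 1 and 3 in the epidermis and the cortex had correlations of 0.273 to 0.585. Those of the pericycle, over all numbers, had -0.0493 to 0.170. The data alone thus did not establish the pairing in every cell type and number. Without the replicate block the calls were 4 for epidermis over cortex, 2 for epidermis over pericycle and 0 for cortex over pericycle. Over all 27 libraries they were 19, 20 and 19. Of all genes 8.69%, 13.4% and 3.31% were called without the block, and 39.7%, 46.0% and 43.2% over all 27 libraries.

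DESeq2 called 5 for Pep1 over mock in the cortex, 5 for number 2 over 1, 11 for 3 over 1 and 1 for 3 over 2 in the epidermis, 7 for 2 over 1 and 10 for 3 over 2 in the cortex, 8 for 3 over 2 in the pericycle, and 1 for the flg22 interaction. Of all genes DESeq2 called 4.18%, 11.4% and 3.16% in the epidermis (2 over 1, 3 over 1, 3 over 2), 3.82% and 4.88% in the cortex (2 over 1, 3 over 2) and 1.25% in the pericycle (3 over 2). With no filter the counts were 6 for Pep1 in the cortex, 2 (number 2 over 1) and 7 (3 over 1) in the epidermis, 11 (2 over 1) and 13 (3 over 2) in the cortex, and 6 (3 over 2) in the pericycle. The shares of all genes called were 3.27%, 1.63%, 4.64%, 2.82%, 3.89% and 0.283% in the same order. With the facility number as a term they were 2 and 1 aquaporins in the epidermis (2 over 1, 3 over 1), 0 in the cortex and 1 in the pericycle (3 over 2). Of all genes, 2.29% and 4.77% were called with that term in the epidermis (2 over 1, 3 over 1). In the cortex 1.58% and 0.535% were called (2 over 1, 3 over 2), and in the pericycle 0.0448% (3 over 2). With no label term the aquaporin counts were 2 and 6 in the epidermis (2 over 1, 3 over 1) and 0 and 0 in the cortex (2 over 1, 3 over 2). The shares of all genes called were 2.09% and 7.44% in the epidermis and 1.53% and 1.16% in the cortex. Total counts gave 7 in the epidermis (3 over 1) and 1 in the pericycle (3 over 2), with 6.74% and 0.0321% of all genes called. The cause was not tested.

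Leaving out 1 library gave 8 to 14 calls for epidermis over cortex, 4 to 13 for epidermis over pericycle, 5 to 18 for cortex over pericycle, 0 to 1 for Pep1 in the cortex and 0 for the other labels. For numbers 2 over 1, 3 over 1 and 3 over 2 it gave 0 to 3, 0 to 7 and 0 in the epidermis, 1 to 4, 13 to 16 and 0 to 11 in the cortex, and 0, 5 to 12 and 0 to 1 in the pericycle; the flg22 interaction had 0 to 1. For 2 over 1 in the epidermis the count was 0 without the flg22 library numbered 1 or 3, the mock numbered 1 or 2 or the Pep1 numbered 2, and 3 without the Pep1 numbered 1. For 2 over 1 in the cortex it was 1 without the flg22 or Pep1 library numbered 1 or 2. For 3 over 2 in the cortex it was 11 without the flg22 library numbered 2, 2 without that numbered 1, and 0 without the mock or Pep1 library numbered 2 or 3. Shares of all genes called are not given for the fits with a library left out.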
